A study of Mus musculus with 4 samples.

Results

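The cell cycle and DNA replication genes described here are 42 genes chosen by symbol, out of 55401 genes in the count table. All 42 were found, and all 42 were among the 11676 genes with enough reads to be tested. They were measured by messenger RNA sequencing in P14 CD8+ T cells, mouse T cells with a transgenic receptor for an epitope of lymphocytic choriomeningitis virus (LCMV). The cells came from spleens of mice infected with the Armstrong strain of LCMV and carried either the empty pMIA vector or a pMIA vector for overexpression of Hic1, which encodes a repressor of transcription with zinc fingers. Both groups therefore shared the P14 receptor, the infection, the tissue and the vector backbone, and there were 2 libraries in each, numbered 1 and 2. Day 32 of infection stands in the sample labels but day 7 in the series description, and which applies is not settled here. No source used here states the strain or age of the mice, the promoter of the vector, or whether animals were pooled.

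A dividing cell first commits to DNA synthesis, when cyclin E and the E2F transcription factors turn on genes for origin licensing, the MCM helicase, the sliding clamp and the supply of deoxynucleotides. Later, in G2 and mitosis, cyclins A and B with Cdk1 and the Polo and Aurora kinases drive chromosome condensation, spindle assembly, the checkpoint and cytokinesis. CD8+ T cells divide very rapidly in the first days after an acute infection, and most memory T cells that persist later are quiescent. The levels of these transcripts are therefore widely used as a readout of how much of a T cell population is cycling. In bulk RNA, fewer cycling cells and less of each transcript per cycling cell cannot be told apart.

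Depth ranged from 3941364 to 4017346 counts with the empty vector and from 7501285 to 8839317 with the Hic1 vector, and it thus moved with the group. Hic1 itself had 3 and 5 counts with the empty vector and 314 and 161 with the Hic1 vector (log2 fold change 4.58, SE 0.538, edgeR adjusted p = 0.00706), so it was higher in both libraries labelled with its vector. All 8 T cell markers listed, Cd8a and Cd8b1 among them, were detected. Their summed level was 5730 and 5950 CPM (counts scaled to a common library size) with the empty vector. It was 6290 and 7030 CPM with the Hic1 vector. Ighm, an immunoglobulin heavy chain gene of B cells, stood at 61.4 and 84.4 CPM with the empty vector and 238 and 197 CPM with the Hic1 vector. Cd79b, a signalling chain of the B cell receptor, stood at 16.3 and 3.25 CPM and at 38 and 13.3 CPM, with the number 1 library the higher in both groups. Its partner Cd79a was at 0 to 2.39 CPM, Cd22 at 0 to 1.75 CPM and Ms4a1 at 0 to 0.5 CPM, and the part of B cell transcripts in the results was not tested. Xist, which is made from the inactive X chromosome, had 1885 and 3590 counts in the libraries numbered 1 and 0 and 3 counts in those numbered 2. The Y-linked gene Eif2s3y had 0 and 0 counts in number 1 and 396 and 951 in number 2. The number therefore separated libraries with female from libraries with male transcripts in both groups, and the libraries of a group came from different animals. The labels do not say that a number marks a shared animal, cage or day, so differences within each number are given as values beside the test.

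The promoters of 7 members are shown as examples, and whether their letters relate to the library values below was not tested. Each run is the 250 bases before the RefSeq transcription start (GRCm38.p6), 5′ to 3′ on the gene's strand. Capitals mark matches, on either strand, to the CHR element (TTTGAA), the CCAAT box (CCAAT) and the E2F site (TTTCCCGC, TTTGGCGC, TTTCGCGC or TTTGCCGC). The first 4 belong to Top2a, Kif11, Cdk1 and Ccnb2, all with a CHR match. The last 3 belong to Mcm5, Mcm6 and Rrm2, which have none. Top2a is outside the mitosis and replication genes counted below, and Rrm2 has no E2F match.
Top2a: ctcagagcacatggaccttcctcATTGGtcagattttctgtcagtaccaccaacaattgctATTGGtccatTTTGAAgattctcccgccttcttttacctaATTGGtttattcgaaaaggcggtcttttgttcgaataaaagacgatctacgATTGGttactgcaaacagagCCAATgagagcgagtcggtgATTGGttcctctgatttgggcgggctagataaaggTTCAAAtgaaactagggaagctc
Kif11: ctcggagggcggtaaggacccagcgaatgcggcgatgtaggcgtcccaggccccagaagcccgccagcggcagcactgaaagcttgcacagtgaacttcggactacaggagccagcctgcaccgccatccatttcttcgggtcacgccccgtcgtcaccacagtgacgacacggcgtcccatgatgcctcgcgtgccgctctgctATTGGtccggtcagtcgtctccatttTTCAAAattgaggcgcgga
Cdk1: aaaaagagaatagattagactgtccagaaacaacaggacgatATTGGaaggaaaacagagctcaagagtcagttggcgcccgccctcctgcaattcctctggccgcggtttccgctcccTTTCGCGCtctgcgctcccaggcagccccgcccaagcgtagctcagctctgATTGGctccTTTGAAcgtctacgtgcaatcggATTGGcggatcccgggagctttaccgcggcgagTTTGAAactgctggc
Ccnb2: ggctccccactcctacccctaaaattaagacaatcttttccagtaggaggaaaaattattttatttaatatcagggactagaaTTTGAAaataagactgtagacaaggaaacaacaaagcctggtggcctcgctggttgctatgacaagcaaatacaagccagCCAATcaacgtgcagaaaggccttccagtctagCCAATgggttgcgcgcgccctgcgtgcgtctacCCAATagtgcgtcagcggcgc
Mcm5: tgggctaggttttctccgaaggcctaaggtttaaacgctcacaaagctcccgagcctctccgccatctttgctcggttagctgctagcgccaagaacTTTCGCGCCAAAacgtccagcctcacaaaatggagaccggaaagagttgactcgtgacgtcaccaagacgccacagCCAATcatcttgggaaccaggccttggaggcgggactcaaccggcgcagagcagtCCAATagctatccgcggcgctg
Mcm6: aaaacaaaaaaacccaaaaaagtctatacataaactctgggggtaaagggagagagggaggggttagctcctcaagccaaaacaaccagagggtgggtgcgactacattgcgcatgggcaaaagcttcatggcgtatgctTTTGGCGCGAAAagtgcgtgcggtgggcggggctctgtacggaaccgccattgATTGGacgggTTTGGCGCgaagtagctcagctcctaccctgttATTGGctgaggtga
Rrm2: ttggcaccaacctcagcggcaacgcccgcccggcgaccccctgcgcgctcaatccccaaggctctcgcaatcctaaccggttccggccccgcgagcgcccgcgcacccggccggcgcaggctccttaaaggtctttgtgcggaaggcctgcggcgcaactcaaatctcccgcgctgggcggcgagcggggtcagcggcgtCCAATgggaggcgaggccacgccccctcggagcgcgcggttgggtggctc

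These windows lie at chr11:99024190-99024439 on the minus strand for Top2a, chr19:37376132-37376381 on the plus strand for Kif11, chr10:69352913-69353162 on the minus strand for Cdk1 and chr9:70421555-70421804 on the minus strand for Ccnb2. They lie at chr8:75109259-75109508 on the plus strand for Mcm5, chr1:128359706-128359955 on the minus strand for Mcm6 and chr12:24708004-24708253 on the plus strand for Rrm2. In Top2a the CHR matches began at positions -179 and -23, where -1 is the last base before the start, and 6 CCAAT matches lay in the same window. Kif11 had 1 CHR match, at -19, with a CCAAT match at -45. Cdk1 had CHR matches at -71 and -15 and an E2F match at -131. Mcm6 had 3 E2F matches, at -110, -106 and -47, and Mcm5 had 2, at -153 and -149, and in each gene the neighbouring pair overlaps, being read on opposite strands.

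Counts were made over windows of 300 bases, which add the 50 bases from the start on, and 34 of the 42 members have such a window in the RefSeq table. A CHR match was present in 11 of 16 windows of mitosis genes (68.8%), in 1 of 13 windows of replication genes (7.7%) and in 17.9% of all 32851 windows. An E2F match was present in 1 of the 16 (6.2%), in 6 of the 13 (46.2%) and in 2.3% of all windows. The CCAAT box was present in 14 of the 16 (87.5%), 9 of the 13 (69.2%) and 37.4% of all windows. GGGCA, the core of the Hic1 recognition sequence, was present in 52.8% of the members' windows and in 53.5% of all windows. Not every mitosis gene had these letters, and Nusap1 had 0 CHR and 0 CCAAT matches. These are matches to letters and not measured binding.

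None of the 42 members passed the test of the Hic1 vector against the empty vector. In edgeR's quasi-likelihood test, with p-values adjusted by Benjamini-Hochberg across every tested gene, 0 of 42 members passed an adjusted p of 0.05, where 213 genes in all, 1.82%, passed. DESeq2 and limma voom also passed 0 of the 42. At an unadjusted p below 0.05 there were 4 members (9.52%), Kif11, Rrm2, Tyms and E2f1, against 19.1% of all tested genes. Of the members' log2 fold changes, 28 were below 0 and 14 above, with a median of -0.14, while the median over all tested genes was 0.01 with 5730 below 0. For 36 of the 42 (85.7%) the 95% interval of the log2 fold change lay entirely between -1 and 1. That share was not computed over all tested genes, whose median SE was 0.273 against 0.261 for the members.

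**Figure D1:**
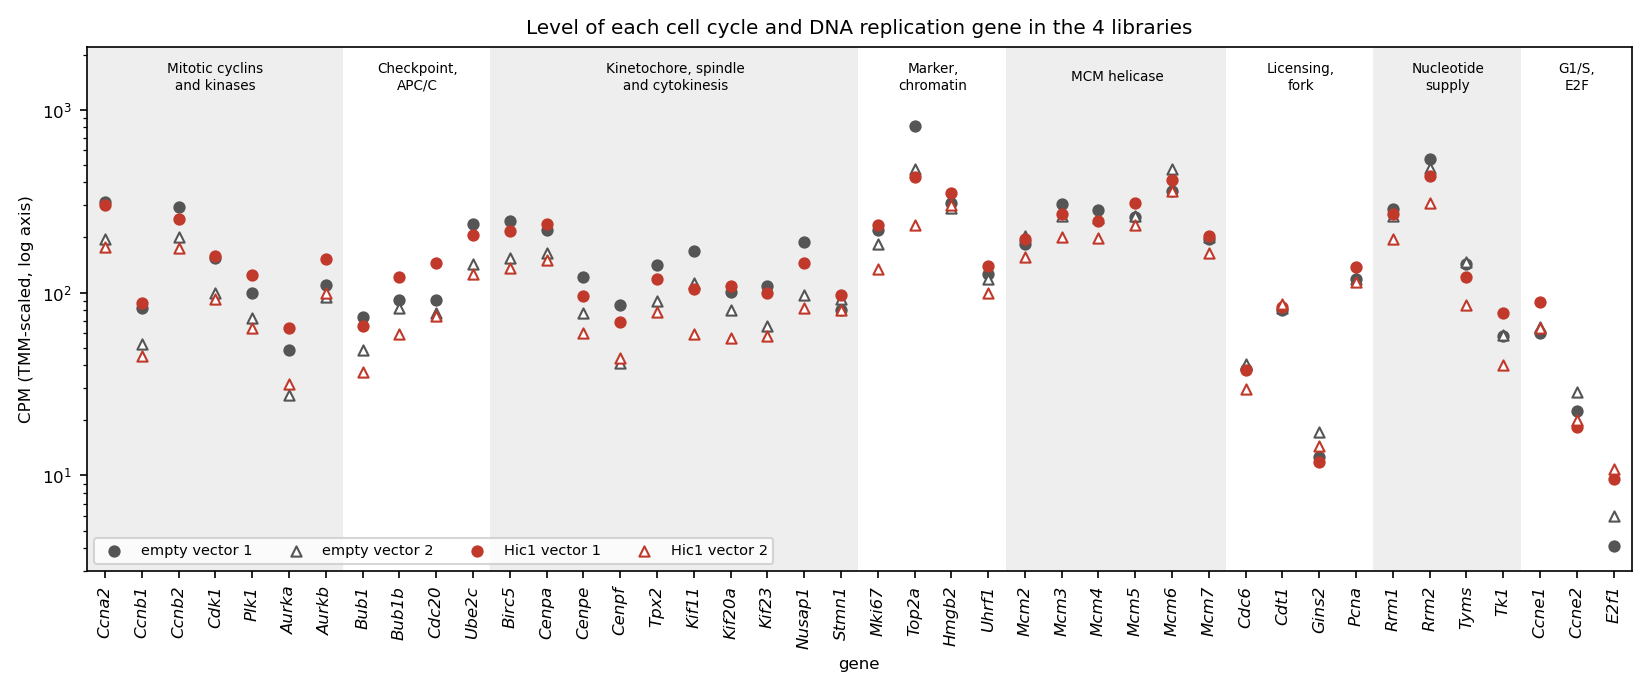
Level of each of the 42 genes in the 4 libraries, as CPM on a log axis, with genes along the horizontal axis in role groups. Grey marks are empty vector and red marks Hic1 vector, filled circles are number 1 and open triangles number 2. In most mitosis genes the circles of both colours lie above the triangles, and in 32 of the 42 genes the lowest mark is Hic1 vector 2.

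Counting members whose libraries did not overlap between the groups gave 7 with both Hic1 vector libraries lower (16.7%), against 24.9% of all tested genes. It gave 2 with both higher, Cdt1 and E2f1 (4.76%), against 26.5% of all. The 7 were Top2a, Kif11, Mcm4, Cdc6, Rrm2, Tyms and Ccne2. Neither share was above its background.

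The mitotic cyclins and kinases, 7 genes, had log2 fold changes from -0.21 to 0.32 with a median of -0.02. Ccna2 encodes cyclin A2, which works in S phase and on entry into mitosis, and it stood at 311 and 195 CPM in empty vector 1 and 2 and at 302 and 178 CPM in Hic1 vector 1 and 2. Ccnb1, cyclin B1, stood at 81.8 and 52.0 CPM against 87.6 and 44.9 CPM. Cdk1, the kinase that both cyclins activate, stood at 154 and 98.9 CPM against 158 and 92.4 CPM. In all 3 genes the groups overlapped and the libraries numbered 1 were the higher pair. Ccnb2, the other B cyclin, stood at 294 and 201 CPM against 252 and 175 CPM (log2 fold change -0.21, SE 0.221, edgeR adjusted p = 0.659). Plk1, the Polo-like kinase of mitotic entry, stood at 100 and 73.0 CPM against 125 and 63.8 CPM. Aurka, the Aurora kinase of spindle poles, stood at 48.5 and 27.5 CPM against 63.9 and 31.6 CPM. Aurkb, the Aurora kinase of the chromosomal passenger complex, stood at 110 and 94.2 CPM against 152 and 98.9 CPM. The last 3 had log2 fold changes above 0 (0.12, 0.32 and 0.29), none past the test.

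The spindle checkpoint and the anaphase-promoting complex were represented by 4 genes with a median log2 fold change of -0.07. Cdc20, which activates the complex at anaphase, stood at 90.8 and 77.4 CPM with the empty vector and 145 and 74.6 CPM with the Hic1 vector, so the single high library was Hic1 vector 1. Bub1b, which encodes the checkpoint protein BubR1, had the same shape, at 91.3 and 82.2 CPM against 121 and 59.6 CPM. For these genes the 2 Hic1 vector libraries lay on either side of the empty vector pair. The checkpoint kinase gene Bub1 stood at 73.1 and 48.5 CPM against 65.5 and 36.6 CPM. Ube2c, the ubiquitin-conjugating enzyme of the complex, stood at 238 and 144 CPM against 206 and 127 CPM, with number 1 again the higher in both groups.

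Among 10 genes of the kinetochore, spindle and cytokinesis, the log2 fold changes ran from -0.79 to 0.03 with a median of -0.18. Kif11 (ENSMUSG00000012443.4, chr19:37376403-37421859 in mm10, plus strand) encodes the kinesin that pushes spindle poles apart. It stood at 168 and 113 CPM in empty vector 1 and 2 and at 104 and 59.0 CPM in Hic1 vector 1 and 2, means of 141 ± 38.9 and 81.7 ± 32.1 (SD, n = 2 each). The groups did not overlap, though Hic1 vector 1 lay close under empty vector 2. The log2 fold change was -0.79 (SE 0.289, 95% interval -1.46 to -0.12), with an unadjusted p of 0.0268 and an edgeR adjusted p of 0.199. Within number 1 the difference was -0.69 and within number 2 it was -0.94.

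The other members of this role had overlapping groups. Nusap1, a spindle microtubule bundling protein (ENSMUSG00000027306.15, chr2:119618298-119651244, plus strand), stood at 189 and 96.9 CPM against 145 and 82.2 CPM. Cenpf, a kinetochore protein of G2 and M phase, stood at 85.4 and 41.2 CPM against 69.0 and 43.8 CPM. Both had a wide gap between the libraries of a group, and neither differed by group beyond it. Cenpe, a kinetochore kinesin, stood at 122 and 77.7 CPM against 96.3 and 59.9 CPM (log2 fold change -0.36, SE 0.272, edgeR adjusted p = 0.524). Birc5, survivin, stood at 247 and 154 CPM against 216 and 137 CPM, and Tpx2, which activates Aurora A on the spindle, at 141 and 89.4 CPM against 119 and 77.8 CPM. Cenpa, the centromeric histone, stood at 219 and 164 CPM against 238 and 151 CPM. Kif20a and Kif23 encode kinesins of the central spindle, with log2 fold changes of -0.14 and -0.15. Kif20a stood at 101 and 80.2 CPM against 108 and 56.7 CPM, and Kif23 at 109 and 66 CPM against 99.8 and 58.2 CPM. Stmn1, a tubulin-sequestering protein, stood at 79.9 and 92.4 CPM against 96.7 and 79.8 CPM, and it did not share the order of the other 9.

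Top2a had the most negative log2 fold change of the 42. It encodes topoisomerase II alpha, which untangles sister chromatids (ENSMUSG00000020914.17, chr11:98992943-99024189, minus strand). The counts were 3360 and 1894 in empty vector 1 and 2 and 3053 and 2049 in Hic1 vector 1 and 2. Scaled for depth they were 816 and 473 CPM against 430 and 233 CPM, means of 644 ± 242 and 332 ± 139 (SD, n = 2 each). Both Hic1 vector libraries were below both empty vector libraries, but the pair within each group differed by nearly as much as the groups did. The log2 fold change was -0.96 (SE 0.413, 95% interval -2.07 to 0.16, edgeR adjusted p = 0.319), and the within-number differences were -0.92 and -1.02. The proliferation marker Mki67, the gene of the Ki-67 antigen, stood at 219 and 184 CPM against 233 and 134 CPM (log2 fold change -0.14, 95% interval -0.69 to 0.42). Hmgb2, a chromatin protein abundant in cycling cells, stood at 308 and 290 CPM against 348 and 301 CPM, and its groups overlapped. Uhrf1, which maintains DNA methylation after replication, stood at 127 and 119 CPM against 140 and 100 CPM. Their log2 fold changes were 0.12 and -0.04.

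The MCM genes encode the subunits of the replicative helicase, and 5 of 6 had a log2 fold change below 0, from -0.27 to 0.06 with a median of -0.13. Mcm4 was the only one whose groups did not overlap, at 281 and 257 CPM against 246 and 199 CPM (log2 fold change -0.27, SE 0.150, edgeR adjusted p = 0.351). Mcm3 stood at 304 and 263 CPM against 270 and 201 CPM, and Mcm6 at 359 and 474 CPM against 414 and 359 CPM. Mcm5 stood at 258 and 261 CPM against 309 and 234 CPM, and Mcm2 at 185 and 203 CPM against 196 and 156 CPM. Mcm7 stood at 195 and 201 CPM against 205 and 164 CPM. Hic1 vector 2 was the lowest library in all of these but Mcm6, where it equalled empty vector 1 at the precision printed. The 3 SEs of Mcm2, Mcm5 and Mcm7, 0.158, 0.156 and 0.155, were among the smaller ones, and their log2 fold changes were -0.14, 0.06 and -0.10.

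Origin licensing and the fork were represented by 4 genes with a median of -0.06. Cdc6, which loads the helicase onto origins, stood at 38.4 and 40.7 CPM against 37.7 and 29.7 CPM. Cdt1, its partner in loading, stood at 80.3 and 82.7 CPM against 82.9 and 86.9 CPM, and its log2 fold change of 0.06 turned to -0.18 after GC correction. Pcna, the sliding clamp, stood at 118 and 119 CPM against 138 and 114 CPM, and Gins2, a subunit of the active helicase, at 12.6 and 17.2 CPM against 11.8 and 14.5 CPM. Both Hic1 vector libraries were lower for Cdc6 and higher for Cdt1, by small margins, and the groups overlapped for Pcna and Gins2. None of the 4 passed the test.

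Nucleotide supply had the lowest median of the 8 role groups, -0.35 over 4 genes. Rrm2 encodes the small subunit of ribonucleotide reductase, which makes deoxynucleotides (ENSMUSG00000020649.11, chr12:24708241-24714146, plus strand). It stood at 539 and 478 CPM in empty vector 1 and 2 and 436 and 308 CPM in Hic1 vector 1 and 2, means of 509 ± 43.4 and 372 ± 90.2 (SD, n = 2 each). The groups did not overlap, and the lowest library was Hic1 vector 2. The log2 fold change was -0.45 (SE 0.168, 95% interval -0.82 to -0.08, edgeR adjusted p = 0.179), with -0.31 within number 1 and -0.63 within number 2. Tyms, thymidylate synthase (ENSMUSG00000025747.12, chr5:30058202-30073617, minus strand), stood at 144 and 146 CPM against 122 and 85.7 CPM. Its log2 fold change was -0.49 (SE 0.180, edgeR adjusted p = 0.172). Rrm1, the large subunit of the reductase, stood at 287 and 263 CPM against 268 and 197 CPM. Tk1, the thymidine kinase of the salvage route, stood at 57.8 and 58.7 CPM against 77.0 and 40.0 CPM, with the Hic1 vector libraries on either side of a close empty vector pair.

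The G1/S genes went in different directions. E2f1, a transcription factor that activates S phase genes (ENSMUSG00000027490.17, chr2:154559407-154569892, minus strand), had 17 and 24 counts in empty vector 1 and 2 and 68 and 95 in Hic1 vector 1 and 2. These low counts correspond to 4.13 and 6 CPM against 9.57 and 10.8 CPM, means of 5.06 ± 1.32 and 10.2 ± 0.885 (SD, n = 2 each). Both Hic1 vector libraries were the higher, with a log2 fold change of 0.97 (SE 0.395, 95% interval 0.11 to 1.83) that did not pass the test (edgeR adjusted p = 0.209). Ccne1, cyclin E1, stood at 60.4 and 64.7 CPM against 89.3 and 64.0 CPM, and the single high library was Hic1 vector 1. Ccne2, cyclin E2, stood at 22.6 and 28.7 CPM against 18.4 and 20.2 CPM (log2 fold change -0.40, SE 0.265, edgeR adjusted p = 0.445). Per kilobase of exon, the level averaged over the libraries was highest for Rrm2 at 159 CPM per kb and Ccnb2 at 151, and lowest for E2f1 at 2.42.

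**Figure D2:**
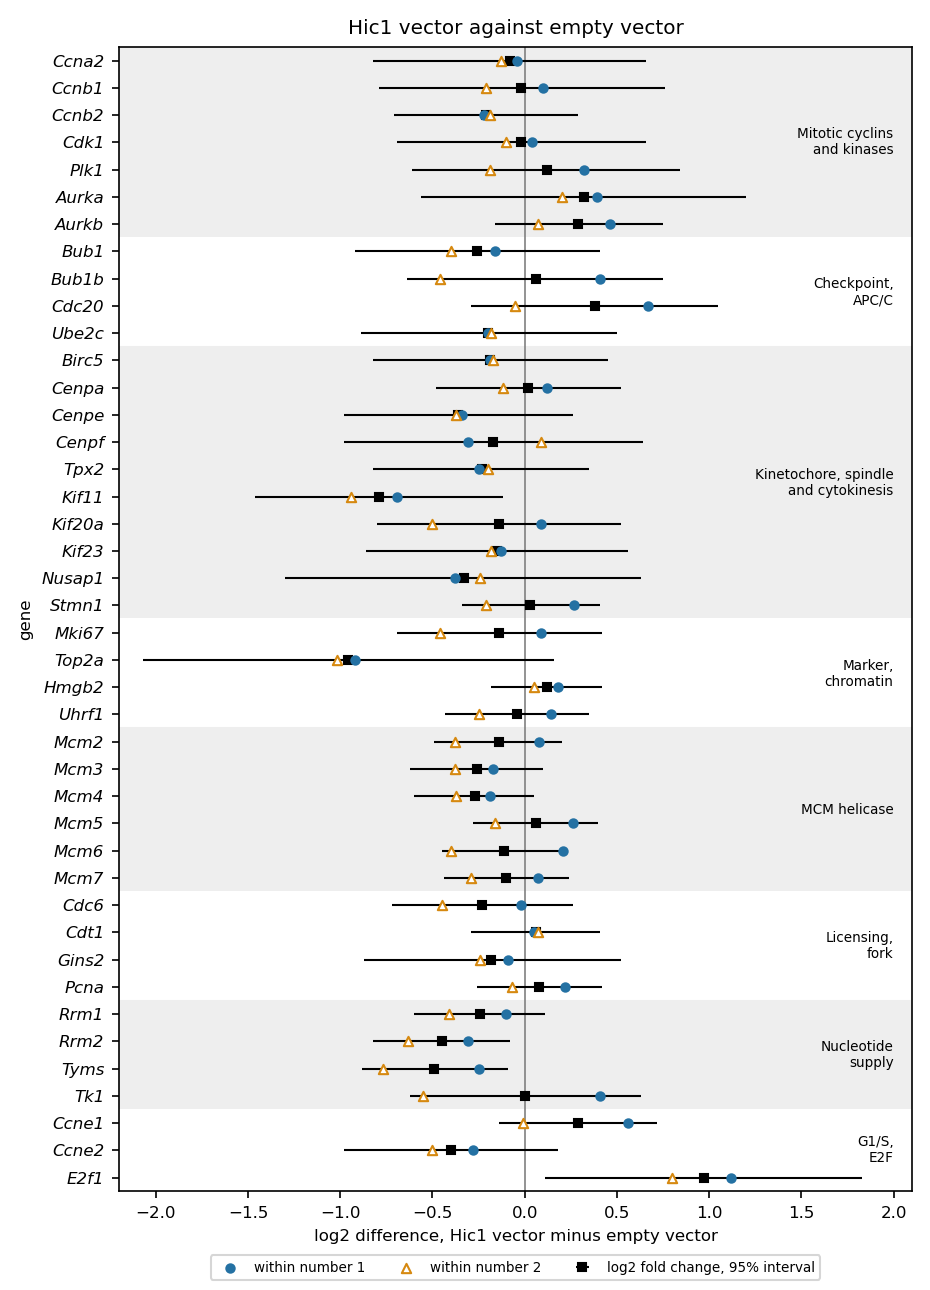
Log2 difference between Hic1 vector and empty vector for each of the 42 genes, by role group. Black squares and bars are the edgeR log2 fold change and its 95% interval, blue circles the difference within number 1 and open triangles that within number 2. The bars of Kif11, Rrm2, Tyms and E2f1 do not cross 0 and all others do, and Top2a and Kif11 lie farthest to the left.

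Within number 1, 20 of the 42 members were below 0, with a median of 0.04. Within number 2, 36 of the 42 were below 0, with a median of -0.22, while all tested genes split about evenly in both (5694 and 5775 of 11676 below 0). For the MCM genes the medians were 0.08 and -0.37, and for nucleotide supply -0.17 and -0.59. For the kinetochore, spindle and cytokinesis genes they were -0.22 and -0.21, with 7 and 9 of 10 below 0. The members' median was thus below 0 within number 2 and not within number 1, but these role groups differed in it. Top2a and Kif11 were below 0 in both numbers, as were other members such as Ccnb2, Birc5, Mcm3, Rrm2 and Tyms. Opposite signs were seen in 18 of the 42. A fit with the number as a term takes the spread between the numbers out of the error. With 4 libraries it leaves very few residual degrees of freedom, so its SEs rest largely on the spread of other genes. It passed 6.8% of all tested genes and 3 of the members (7.14%), all lower with the Hic1 vector. These were Top2a (log2 fold change -0.97, SE 0.103, edgeR adjusted p = 0.00135), Kif11 (-0.81, SE 0.141, adjusted p = 0.0105) and Rrm2 (-0.47, adjusted p = 0.0398). The share of members was close to that of all genes.

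The summed level of the mitosis genes differed more by replicate number than by vector. The library with the highest level was a number 1 library in 34 of 42 members (81%), and the lowest was Hic1 vector 2 in 32 (76.2%). These shares were not computed over all tested genes, and the members all share the same libraries. The summed level of the 21 mitosis genes was 3056 and 2069 CPM in empty vector 1 and 2 and 2971 and 1788 CPM in Hic1 vector 1 and 2. That of the 14 replication genes was 2860 and 2864 CPM against 2812 and 2189 CPM. The mitosis sum was thus about equal in the number 1 libraries of both vectors, while the replication sum was about equal in 3 libraries and lower in Hic1 vector 2. The ratio of the mitosis to the replication sum was 1.07 and 0.722 with the empty vector and 1.06 and 0.817 with the Hic1 vector. With 2 libraries against 2, an exact permutation test of any such sum cannot go below 0.333.

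**Figure D3:**
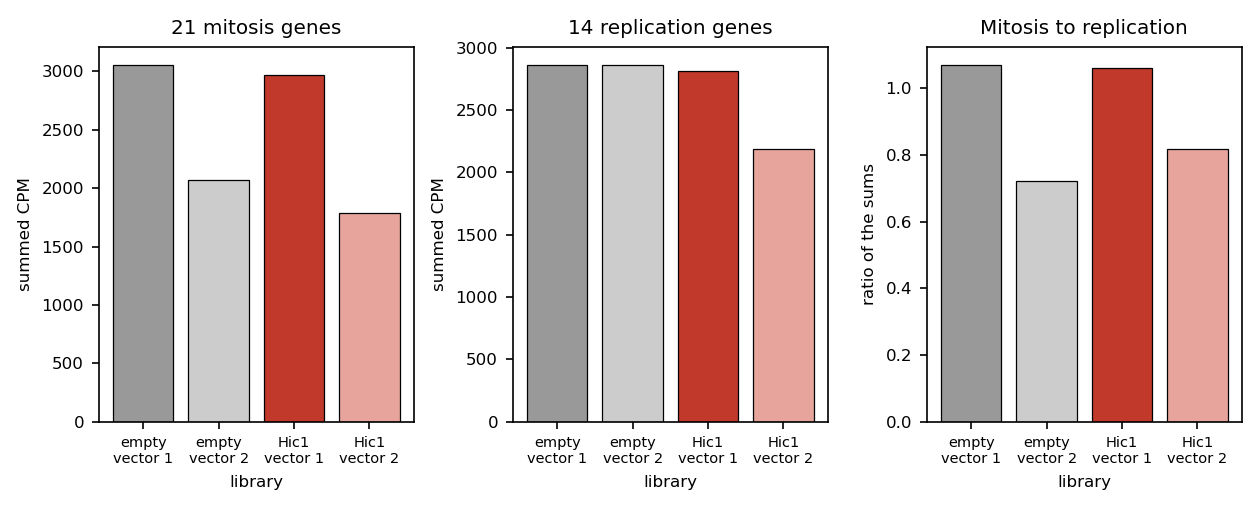
Summed CPM of the 21 mitosis genes and the 14 replication genes, and the ratio of the sums, in each library, with axes from 0 and 1 bar per library without error. The mitosis bars of number 1 stand at 3056 and 2971 CPM and those of number 2 at 2069 and 1788 CPM, and the replication bars are near 2860 CPM except in Hic1 vector 2, at 2189 CPM.

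Of the 21 mitosis genes, 20 were higher in number 1 than in number 2 with both vectors, Stmn1 being the exception. The same held for 4 of the 14 replication genes and for 28.8% of all tested genes. The median log2 difference, number 1 minus number 2, was 0.64 with the empty vector and 0.77 with the Hic1 vector for the cyclins and kinases. It was 0.65 and 0.67 for the kinetochore and spindle genes, and -0.03 and 0.33 for the MCM genes. The number was also tested with the vector in the model, a test chosen after the values had been seen. Like the fit above, it leaves very few residual degrees of freedom. It passed 27 genes, 0.231% of those tested. Of the 143 other pathway genes tested, described below, it passed 0. The 69 other mitosis genes among them had medians of 0.41 with the empty vector and 0.59 with the Hic1 vector. Among the 42 members the test passed 3 (7.14%), all higher in number 1.

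Those 3 were Top2a (log2 difference 0.83, SE 0.103, edgeR adjusted p = 0.0105), Nusap1 (0.89, SE 0.132, adjusted p = 0.0277) and Ccna2 (0.72, SE 0.114, adjusted p = 0.0399). Ccna2 lies at chr3:36564865-36572150 on the minus strand (ENSMUSG00000027715.9). Which members passed depended on the scaling and filter, from 0 with library sizes alone to 21 with no filter on low counts. Every member that passed in any of these fits was higher in number 1. Of all genes called, 19 of 27 were higher in number 1 in the main fit. The same held for 165 of 222 with no filter and 3 of 7 with library sizes alone. Of the 27 in the main fit, 7 lay on chromosome X or Y, and 16 of the other 20 were higher in number 1. The number cannot be told apart from the sex of the animals or from anything else the libraries of a number share.

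**Figure D4:**
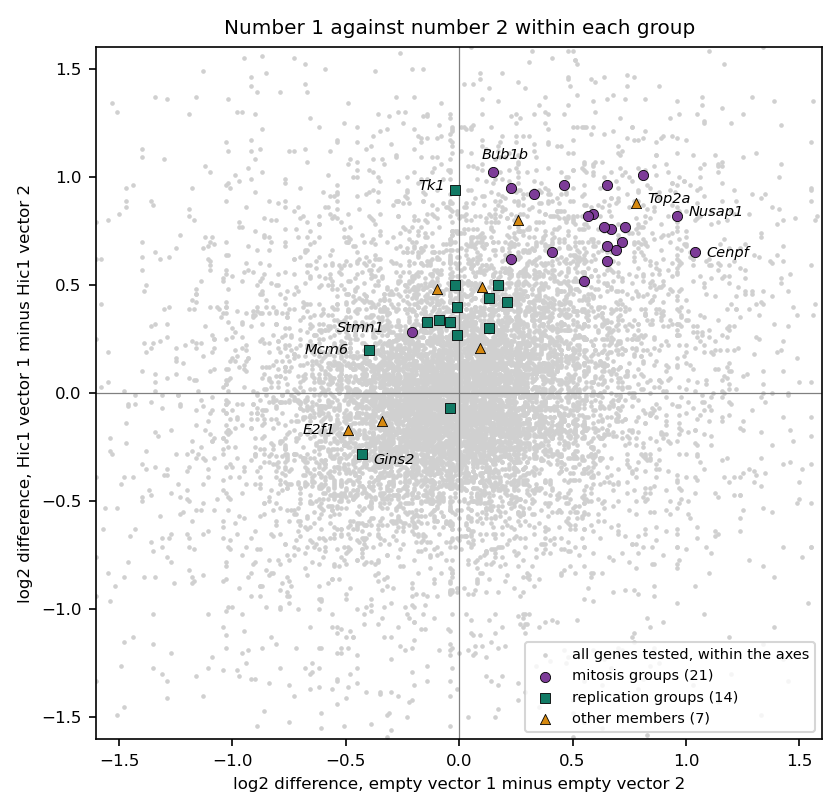
Log2 difference of number 1 minus number 2 with the empty vector (horizontal) and with the Hic1 vector (vertical) for each gene. Grey points are all tested genes within the axes, and coloured marks are the members by kind. The mitosis genes lie in the upper right, apart from Stmn1, and the replication genes lie mostly to their left, from -0.43 for Gins2 to 0.21 for Mcm3 on the horizontal axis.

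Beyond the 42, other genes of the pathway were taken from 5 lists, and 143 of 149 were tested, of which 1 was higher and 4 were lower by edgeR at an adjusted p of 0.05. These 5 are 3.5% of the pathway genes tested, against 1.82% of all genes. In the list of RB, E2F and DREAM genes, to which Myc had been added, 20 were tested. Myc rose from 17.2 and 19.5 CPM to 51.8 and 42.2 CPM (log2 fold change 1.34, SE 0.239, adjusted p = 0.0238, and 1.56 and 1.09 within the numbers). Myc is a transcription factor that drives growth and entry into the cycle. In the same list Rbl1, which encodes the pocket protein p107, fell from 71.6 and 52.7 CPM to 26.5 and 30.7 CPM (log2 fold change -1.11, adjusted p = 0.0359). Of the G1 cyclins and CDKs, 5 were tested and Cdk6, the kinase partner of D cyclins, fell from 213 and 176 CPM to 102 and 116 CPM (log2 fold change -0.83, adjusted p = 0.029). Of the 4 tested CDK inhibitors 0 passed by edgeR, 0 were at an unadjusted p below 0.05, and 0 passed by DESeq2 or voom.

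Of 45 other replication genes, 34 (75.6%) were below 0, against 49.1% of all tested genes, with a median of -0.19. Their median difference of number 1 minus number 2 was 0.02 with the empty vector and 0.27 with the Hic1 vector. All these genes share the same 4 libraries, so the share below 0 is a description. By edgeR 2 of the 45 passed the test, both lower. Pole4, a small subunit of DNA polymerase epsilon, fell from 97.6 and 98.7 CPM to 43.1 and 30.5 CPM (log2 fold change -1.41, SE 0.202, edgeR adjusted p = 0.0114). Pola1, the catalytic subunit of DNA polymerase alpha, fell from 103 and 87.7 CPM to 57.6 and 45.5 CPM (log2 fold change -0.89, SE 0.187, adjusted p = 0.043). Of 69 other mitosis genes, 48 (69.6%) were below 0 with a median of -0.15. By edgeR 0 of these passed, with 5 at an unadjusted p below 0.05, 7.25% of them against 19.1% of all genes, and DESeq2 passed 1, Cdc16, and voom 0. With the number as a term edgeR passed 8 of the 69, Cdc16 among them (adjusted p = 0.00266), and 9.09% of all pathway genes tested, against 6.8% of all genes. Cdc16 had the lowest p among them and encodes a subunit of the anaphase-promoting complex (log2 fold change -1.36, SE 0.326, adjusted p = 0.0704). Without empty vector 1 none of the 5 calls was kept. Without Hic1 vector 1 Cdk6 and Rbl1 lost theirs, without Hic1 vector 2 Pola1 did, by voom Rbl1 and Pola1 did, and without the robust fit Pola1 did. After GC correction Myc and Pole4 kept theirs, and the log2 fold changes of the others were -0.94 for Rbl1 and -0.71 each for Cdk6 and Pola1.

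The members' log2 fold changes varied with base composition. Across the 42 genes the correlation with the GC content of the longest annotated transcript was 0.58 (Pearson) and 0.56 (Spearman), against 0.24 and 0.30 across all tested genes. The correlation with log2 exon length was -0.46 by both measures, against -0.02 and -0.10. All points share the same 4 libraries, so these are descriptions. Top2a and Kif11 have a GC content of 43.4% and 42.2%, and E2f1 has 58.3%. After a GC correction of each library the log2 fold changes were -0.80, -0.61 and 0.73, and the members' median was -0.09.

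**Figure D5:**
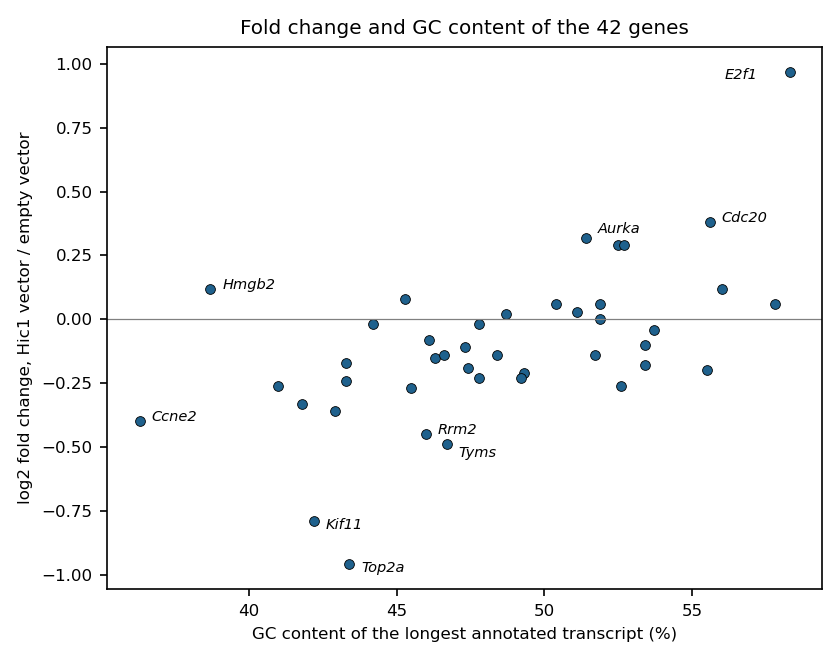
Log2 fold change of the Hic1 vector against the empty vector (vertical) by GC content of the longest annotated transcript in percent (horizontal), 1 point per gene for the 42 genes. Values tend to be higher at higher GC content (Pearson correlation 0.58), with scatter at both ends: Ccne2 has the lowest GC content and a value of -0.40, Hmgb2 the next and 0.12, and E2f1 the highest and 0.97.

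Some members share sequence with other genes, so their counts are uncertain to that extent. Pseudogenes of Hmgb2 and Stmn1, Gm4739 and Gm11223, are 99.7% and 99.8% identical over the aligned bases and held 146 and 159 counts over the 4 libraries. Ccnb1 has 3 near copies, the closest 99.2% identical with 19 counts. Exons of Gins2 overlap Gse1 on the other strand over 67.3% of their length, those of Kif20a overlap Cdc23 over 29.3%, and those of Ccna2 overlap Exosc9 over 12.5%. The sources used here do not say whether reads were counted by strand.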

How the data were processed

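The counts of 4 libraries came from the deposited raw table, which holds whole-number read counts per gene made by the authors. Per the labels' protocols, 5000 cells were sorted, 1000 resorted into lysis buffer, and 5 µl of lysate went into Smart-seq2 libraries with 12 PCR cycles. The submitters' processing notes name mm10, featureCounts 1.5.3, STAR 2.5.2b, DESeq2 1.3.2 and Trimmomatic 0.38, with no roles stated. The deposited normalized table was not used.

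Genes were kept by filterByExpr (minimum count 10, minimum total 15), TMM-scaled and fitted with group as the only term in edgeR 4.0.16 (quasi-likelihood F test, robust, prior count 2) in R 4.3.3, with Benjamini-Hochberg adjustment over all tested genes and a threshold of 0.05. CPM values use TMM-scaled library sizes. Limma 3.58.1 (voom) and DESeq2 1.42.0 were alternatives, as were other scalings and filters, GC correction (loess, span 0.3), the replicate number as a block, and omission of each library. The script was tested on simulated data. Gene coordinates, exon lengths and GC content came from GENCODE M21 (99.5% of identifiers found), and promoters from RefSeq.

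Counts of the libraries of a group differed by more than counting error (chi-square per degree of freedom 9.99 and 19.4), and the biological coefficient of variation was 0.195. Ribosomal RNA from CT010467.1 made up 5.16% to 13.4% of the counts. PCR reads without molecular identifiers are not independent molecules. P-values rate a difference against the spread between these libraries, which in the main fit includes the difference between the numbers. Any of the 42 members could be named, and from each of 5 pathway lists the genes that passed and up to 3 others of lowest p. The members and lists were chosen with earlier results of these data known. The mitosis genes are the cyclin and kinase, checkpoint, and kinetochore and spindle groups, and the replication genes are the MCM, licensing and fork, and nucleotide groups. Of the 6 B cell markers listed, 1 is not reported here, nor is the summed level that includes it.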

Additional observations from a re-analysis of the deposited data

Results flagged for a closer look

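For 8 members the difference between the vectors lay above 0 within number 1 and below 0 within number 2, each by more than 0.1 on the log2 scale, and the difference between the numbers was not tested. The values within number 1 and number 2 were 0.32 and -0.19 for Plk1, 0.41 and -0.46 for Bub1b, 0.12 and -0.12 for Cenpa, and 0.27 and -0.21 for Stmn1. They were 0.14 and -0.25 for Uhrf1, 0.26 and -0.16 for Mcm5, 0.21 and -0.40 for Mcm6, and 0.41 and -0.55 for Tk1. Opposite signs of any size were seen in 18 of 42 members (42.9%) and in 32.2% of all tested genes.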

How the results depend on the processing

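Depth differed with the group, and its effect on the calls was not tested. The 213 genes called became 321 with library sizes alone (21.8% of them higher against 39.4%), 819 with no low-count filter (56.3% higher), 418 with DESeq2, 121 with voom (27.3% higher), 140 without the robust fit and 120 with GC correction. Members called were 0 in these fits except 1, Kif11, with no filter. Pathway genes called were 5 in the main fit, 6 with library sizes alone, 11 with no filter and 6 with DESeq2. They were 3 with voom, 4 without the robust fit and 2 with GC correction. Labels do not pair the numbers, and the differences of number 1 minus 2 correlated between the vectors at 0.243 over all genes and 0.738 over the 42 members. With a replicate block 794 genes, 3 members and 13 pathway genes were called. GC correction with the replicate block called 629 genes, 2 members (Kif11 and Top2a) and 9 pathway genes, and Cdt1 stood at -0.18 there as under GC correction alone. In the test of number 1 against 2, members called were 3, and 2 with RLE scaling, upper-quartile scaling or no robust fit. They were 0 with library sizes alone or with a minimum of 5 CPM in 2 libraries. They were 21 with no filter, 6 with DESeq2, 6 with voom and 7 with GC correction. No library could be left out of that test, since no residual degrees of freedom remain.

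Leaving out each library in turn, where the lone library of a group is assumed to vary like the other group, genes called ranged from 8 (without empty vector 1) to 318, members called from 0 to 2 (Kif11 and Rrm2, without Hic1 vector 1) and pathway genes called from 0 to 11. The members' median ranged from -0.459 without Hic1 vector 1 to 0.122 without Hic1 vector 2. Of the members, 9 stayed below 0 in all 4 omissions (Ccne2, Cdc6, Kif11, Mcm3, Mcm4, Rrm1, Rrm2, Top2a, Tyms), 4 above 0 (Ccne1, Cdt1, E2f1, Hmgb2), and 29 lay on both sides. Log2 fold changes ranged from -0.26 to 0.79 for Aurka, -0.04 to 0.58 for Aurkb, -0.55 to 0.20 for Birc5, -0.72 to 0.11 for Bub1, -0.53 to 0.48 for Bub1b, -0.50 to 0.30 for Ccna2, -0.57 to 0.39 for Ccnb1, -0.49 to 0.09 for Ccnb2 and -0.17 to 0.79 for Cdc20. They ranged from -0.45 to 0.34 for Cdk1, -0.33 to 0.31 for Cenpa, -0.73 to 0.01 for Cenpe, -0.61 to 0.45 for Cenpf, -0.67 to 0.25 for Kif20a, -0.58 to 0.26 for Kif23, -0.31 to 0.02 for Mcm2, -0.14 to 0.26 for Mcm5 and -0.29 to 0.09 for Mcm6. Ranges were -0.27 to 0.06 for Mcm7, -0.59 to 0.22 for Mki67, -0.79 to 0.23 for Nusap1, -0.43 to 0.53 for Plk1, -0.53 to 0.41 for Tk1, -0.56 to 0.14 for Tpx2, -0.58 to 0.21 for Ube2c and -0.29 to 0.19 for Uhrf1. The cause of these changes was not tested.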

Other observations

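The test of number 1 against number 2, chosen after the values had been seen, also passed genes outside the cell cycle. Among them were immediate early genes and phosphatase genes, which are named here after their values were seen. Fos, an AP-1 subunit, stood at 14.1 and 3 CPM in empty vector 1 and 2 and 43.4 and 2.28 CPM in Hic1 vector 1 and 2 (log2 difference 3.31, SE 0.437, edgeR adjusted p = 0.0173). Egr1, a zinc finger factor induced by receptor signals, stood at 25.5 and 6.5 CPM and 62.4 and 15.7 CPM (1.95, edgeR adjusted p = 0.00844). Dusp2, a MAP kinase phosphatase, stood at 279 and 63.5 CPM and 65 and 26.2 CPM (1.73, edgeR adjusted p = 0.00625). Jun, another AP-1 subunit (2.11), and Dusp1, another MAP kinase phosphatase (1.99), also passed, each at an edgeR adjusted p of 0.0227. As with Top2a, Nusap1 and Ccna2, the number 1 library was the higher with both vectors.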
